A study of Homo sapiens with 6 samples.

Results

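The heat shock chaperones examined here were 10 genes, HSPA1A, HSPA1B, HSPA5, HSPA8, HSPB1, HSPD1, HSPH1, HSP90AA1, HSP90B1 and DNAJB1, among 34644 gene names measured by bulk RNA-seq. They were taken by name, and all 10 were present. Entries that share a gene name were summed, so the 10 genes came from 18 of the 38648 entries listed. The cells were HK-2, which are human epithelial cells of the proximal tubule made to grow without limit, and the question was how the chaperone mRNAs stood in irradiated cells with and without added PRDM16, a transcription factor with zinc fingers and a PR domain. In 3 libraries the cells carried a lentivirus serving as negative control (IR+NC-LV), and in 3 they carried the lentivirus for overexpression of PRDM16 (IR+PR-LV). Both groups were selected with puromycin, received 8 Gy of X-rays as a single dose and were harvested on day 7, so no unirradiated cells entered the comparison. The libraries are numbered 1 to 3 in each group. The labels do not say whether they came from separate cultures, and the p-values therefore measure only the spread between these libraries, which may be technical.

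Molecular chaperones bind unfolded or partly folded proteins and, in most families, use cycles of ATP binding and hydrolysis to help them fold, keep them from aggregating or pass them on for degradation. Heat, oxidants and other damage to proteins release the transcription factor HSF1, which binds heat shock elements and raises transcription of the cytosolic chaperones, while unfolded protein in the endoplasmic reticulum (ER) acts through separate sensors on the ER chaperones. The tubular epithelium of the kidney is exposed to ischaemic, osmotic and toxic stress, and heat shock proteins are long known to be induced there.

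The promoters are shown first, because heat shock genes and ER stress genes are known for different elements there. All 10 genes had RefSeq promoter windows (GRCh38.p14), 14 in all since some genes have several starts, and the 250 bases before each start were searched on both strands. The ER stress element, searched as CCAAT and CCACG with 9 bases of any kind between them, occurred in 26 of 35116 such windows (0.0740%). It was present in those of both ER members, HSPA5 (chr9:125241344-125241463, minus strand, beginning 66 bases before the start) and HSP90B1 (chr12:103930210-103930340, plus strand, beginning 194 and 89 bases before the start), where capitals mark its fixed letters.
HSPA5: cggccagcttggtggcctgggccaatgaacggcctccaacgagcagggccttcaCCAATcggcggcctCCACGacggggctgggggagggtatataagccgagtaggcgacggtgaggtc
HSP90B1: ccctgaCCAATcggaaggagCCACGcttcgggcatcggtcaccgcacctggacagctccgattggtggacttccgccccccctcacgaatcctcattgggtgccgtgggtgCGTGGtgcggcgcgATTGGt
Both lie outside the exons listed for these genes. The CCAAT box alone, CCAAT, which forms the first bases of the ER stress element, was in 32.0% of all windows, so the single box does not separate these genes from others.

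The heat shock element, searched as the units GAA, TTC and GAA with 2 bases of any kind between neighbours, was in 155 of the 35116 windows (0.441%). Among the 10 genes it was found in a window of each of HSP90AA1, HSPD1 and HSPA8. The stretches with these matches are shown from chr14:102087045-102087154, chr2:197500061-197500090 and chr11:123062167-123062196 in that order, all read from the minus strand and with the units in capitals.
HSP90AA1: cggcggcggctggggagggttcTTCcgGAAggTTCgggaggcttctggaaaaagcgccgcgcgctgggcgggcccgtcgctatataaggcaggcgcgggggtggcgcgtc
HSPD1: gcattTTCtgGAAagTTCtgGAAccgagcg
HSPA8: gccccTTCtgGAAggTTCtaagatagggta
In HSPD1 the 2 matches, 245 and 240 bases before the start, overlap each other. HSPA8 held a further match 230 bases before the start, beside the one shown at 55. Both HSPA8 matches lie inside the listed span of the gene, the further one at its outer end. For HSP90AA1 and HSPD1 the matches belong to inner starts and also lie inside the listed spans. The windows at their outer starts, chr14:102139749 and chr2:197500274, held 0 matches. The shorter pair of GAA and TTC has 2 bases between them and also forms part of the longer element. It was in 5.78% of all windows and in a window of each of 7 members. HSPA1A and HSPA1B had the pair and not the longer form, and their promoters (chr6:31815423-31815542 and chr6:31827619-31827737, plus strand) are shown with the pair in capitals because they are so alike.
HSPA1A: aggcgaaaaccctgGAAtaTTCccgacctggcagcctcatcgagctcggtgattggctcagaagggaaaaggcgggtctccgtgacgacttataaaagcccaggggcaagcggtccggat
HSPA1B: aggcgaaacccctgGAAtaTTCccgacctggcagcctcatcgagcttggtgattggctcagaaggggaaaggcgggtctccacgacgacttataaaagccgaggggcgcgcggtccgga
Over 250 bases the HSPA1A and HSPA1B windows were 93.6% identical, and both held a TATA box, TATAAA, at 30 and 29 bases before the start, a motif found in 10.7% of all windows. These are matches of letters, and a window without a match says only that these letters are not in it.

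Total counts ranged from 13407074 to 28540041 per library, 3 counts corresponded to 0.105 to 0.224 CPM (counts relative to the library total), and the 10 most abundant genes held 3.63% to 3.91% of the counts. PRDM16 had counts of 2, 0 and 1 with IR+NC-LV against 14, 10 and 8 with IR+PR-LV. The groups did not overlap and followed their labels. These counts were low in both groups, so they do not give the size of the overexpression. Of 12 epithelial and tubular markers, 8 had a mean over 1 TPM (counts divided by gene length and then brought to equal totals across libraries), with KRT8 at 834 and GGT1 at 69.9 TPM. The mature proximal tubule genes LRP2, CUBN, ANPEP and SLC34A1 were at 0.00468, 0.280, 0.138 and 0.304 TPM. Of the fibroblast markers, LUM was at 123 TPM and COL1A2 at 0.0321 TPM, and the summed level of that list was 131 to 136 TPM with IR+NC-LV and 106 to 151 TPM with IR+PR-LV. The leukocyte list, 5 genes with CD14 at 4.14, ITGAM at 1.68 and PTPRC at 0.0424 TPM, summed to 5.54 to 10.05 TPM with IR+NC-LV and to 3.56 to 5.15 TPM with IR+PR-LV, while the 4 endothelial markers were each under 1 TPM. Within the leukocyte list ITGAM was at 2.09, 1.70 and 4.95 TPM with IR+NC-LV and 0.357, 0.614 and 0.368 TPM with IR+PR-LV, without overlap, while CD14 and PTPRC overlapped, and the part of this in the results was not tested. In such bulk libraries, fewer cells of a type and less RNA per cell cannot be told apart.

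The 10 chaperones covered a range of mean levels from 23.6 to 3555 TPM, with the cytosolic HSP90AA1 and HSPA8 and the ER chaperone HSP90B1 at the top and the stress-inducible HSP70 genes HSPA1A and HSPA1B at the bottom. The mean over the 6 libraries was 3555 TPM for HSP90AA1, which ranked 15 among all gene names, 3159 TPM for HSPA8 (rank 19) and 2492 TPM for HSP90B1 (rank 33). HSPD1, HSPB1 and HSPA5 followed at 1408, 1169 and 959 TPM. HSPH1 was at 245 TPM, DNAJB1 at 129 TPM, HSPA1A at 33.2 TPM and HSPA1B at 23.6 TPM, where HSPA1B ranked 6413. Each neighbour in this order stood above the next in 6 of 6 libraries, although the ranges over libraries overlapped for HSP90AA1 and HSPA8, for HSPB1 and HSPA5 and for HSPA1A and HSPA1B. Levels recomputed as CPM per kilobase gave the same order. Both measures divide the same counts by gene length, so this is no separate check. Together the 10 genes held 1.26% ± 0.031 (SD, n = 3) of all TPM with IR+NC-LV and 1.37% ± 0.018 with IR+PR-LV. The ranges of the summed TPM, 12337 to 12949 and 13519 to 13832, did not overlap. Such a sum follows its most abundant genes and does not show a shift of all 10. For HSPB1 the group means were 1225 TPM with IR+NC-LV and 1112 TPM with IR+PR-LV.

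Under the main test (quasi-likelihood in edgeR, p-values adjusted by Benjamini-Hochberg over 15054 genes), none of the 10 members passed an adjusted p of 0.05, a threshold that 12 genes passed (0.0797%), 4 of them higher (0.0266%) and 8 lower (0.0531%) with added PRDM16. At an unadjusted p under 0.05 there were 3 members, HSP90B1, HSP90AA1 and HSPD1, all higher with IR+PR-LV, against 4.41% of all tested genes that were higher at this level. DESeq2 placed the same 3 members past an adjusted p of 0.05, where it called 1.02% of its 14828 genes in either direction and 0.303% as higher. The call therefore depends on the tool. Both edgeR and DESeq2 used the same counts and gave close sizes. On the log2 scale these were 0.28 and 0.30 for HSP90B1, 0.23 and 0.24 for HSP90AA1, and 0.21 and 0.22 for HSPD1. With limma on log2(TPM + 1) they were smaller, at 0.24, 0.19 and 0.17 in that order. The median over all tested genes in the limma fit was -0.032. Of the 10 members 9 had a log2 fold change above 0, as for 51.1% of all tested genes, with a median of 0.13 beside 0.0043 over all tested genes. In TPM, 4 members (HSP90B1, HSP90AA1, HSPD1 and HSPA8) had IR+PR-LV libraries that all lay above the IR+NC-LV libraries, an arrangement seen in 4.21% of all tested genes, and none had the opposite arrangement, which 11.3% of all tested genes had. In TMM-normalized CPM there were 6 such members, with HSPA1A and HSPH1 added, against 7.45% of all tested genes, and none with the opposite arrangement, which 9.56% of all tested genes had.

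The cytosolic chaperones come first. HSP90AA1 (chr14:102080742-102139749, minus strand, GRCh38 as in the files) encodes the inducible cytosolic HSP90, which finishes the folding of kinases and steroid receptors. It had 3234, 3349 and 3376 TPM with IR+NC-LV and 3696, 3757 and 3917 TPM with IR+PR-LV. All 3 IR+PR-LV libraries were above every IR+NC-LV library. The log2 fold change was 0.23 (SE 0.06, 95% confidence interval 0.10 to 0.36), with an unadjusted p of 0.00297 and an adjusted p of 0.22 by edgeR and an adjusted p of 0.0288 by DESeq2. The constitutive HSP90AB1, its closest relative, was at 1933, 1890 and 2058 TPM with IR+NC-LV and 2053, 1881 and 1999 TPM with IR+PR-LV, where the groups overlapped. With each library left out in turn the log2 fold change of HSP90AA1 was 0.21 to 0.26. The ratio of HSP90AA1 to HSP90AB1 was 1.64 to 1.77 with IR+NC-LV and 1.80 to 1.997 with IR+PR-LV, with no overlap and with no test made. Exons of WDR20 on the opposite strand cover 7.79% of the HSP90AA1 exon bases, and whether the counting used the strand is not given in the sources used here.

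HSPA8 (chr11:123057489-123062366, minus strand), the constitutive cytosolic HSP70 that also uncoats clathrin vesicles, was at 3054, 3110 and 3145 TPM with IR+NC-LV and 3266, 3206 and 3170 TPM with IR+PR-LV. The groups did not overlap, but the closest libraries, IR+NC-LV replicate 3 and IR+PR-LV replicate 3, were nearly level. Its log2 fold change was 0.09 (SE 0.06, interval -0.04 to 0.22; adjusted p = 0.628, edgeR), a fold between 0.973 and 1.17. The ratio of HSPA8 to HSP90AA1 in TPM was 0.935 ± 0.00830 (SD, n = 3) with IR+NC-LV and 0.849 ± 0.0374 with IR+PR-LV, and every IR+PR-LV library was below every IR+NC-LV library.

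HSPH1 (chr13:31134973-31162388, minus strand) encodes HSP110, a nucleotide exchange factor that releases ADP from HSP70. Its levels were 240, 231 and 253 TPM with IR+NC-LV and 244, 243 and 257 TPM with IR+PR-LV. The groups overlapped, and the log2 fold change was 0.08 (interval -0.04 to 0.20; adjusted p = 0.649, edgeR). DNAJB1 (chr19:14514769-14530597, minus strand), an HSP40 whose J domain stimulates the ATPase of HSP70, was at 123, 124 and 139 TPM with IR+NC-LV and 135, 129 and 125 TPM with IR+PR-LV. These also overlapped, with a log2 fold change of 0.06 (interval -0.08 to 0.19; adjusted p = 0.785, edgeR) and 5.46% of its exon bases shared with TECR on the other strand. For HSPH1 the interval leaves a fold between 0.972 and 1.15, and for DNAJB1 between 0.947 and 1.14. The log2 fold change of DNAJB1 was 0.026 without IR+PR-LV replicate 1, 0.033 without IR+NC-LV replicate 1 and 0.09 without IR+PR-LV replicate 3.

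HSPB1 (chr7:76302673-76304292, plus strand), which encodes the small heat shock protein HSP27 that holds unfolded proteins without using ATP, was the 1 member with a log2 fold change below 0. It had 1256, 1205 and 1215 TPM with IR+NC-LV and 1218, 1112 and 1006 TPM with IR+PR-LV. IR+PR-LV replicate 1 lay within the IR+NC-LV range, and the other two were below it. This gave a log2 fold change of -0.10 (SE 0.08, interval -0.28 to 0.08; adjusted p = 0.707, edgeR). It was -0.02 without IR+PR-LV replicate 3 and -0.17 without IR+PR-LV replicate 1, so single libraries set its size.

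HSPA1A (chr6:31815543-31817942, plus strand) and HSPA1B (chr6:31827738-31830254, plus strand) encode nearly the same inducible HSP70, each from a single exon, and they lie in the major histocompatibility complex region. HSPA1A was at 29.4, 30.7 and 34.6 TPM with IR+NC-LV and 35.8, 36.3 and 32.6 TPM with IR+PR-LV. The lowest IR+PR-LV library, replicate 3, was below IR+NC-LV replicate 3, and the log2 fold change was 0.19 (SE 0.09, interval -0.01 to 0.39; adjusted p = 0.485, edgeR). HSPA1B was at 20.6, 22.0 and 25.6 TPM with IR+NC-LV and 17.8, 25.2 and 30.1 TPM with IR+PR-LV. The IR+PR-LV libraries of HSPA1B held both the lowest and the highest level, and the log2 fold change was 0.15 (SE 0.17, interval -0.22 to 0.52; adjusted p = 0.793, edgeR). It was -0.01 without IR+PR-LV replicate 3 and 0.32 without IR+PR-LV replicate 1. The ratio of HSPA1A to HSPA1B was 1.42, 1.40 and 1.35 with IR+NC-LV, and 2.01, 1.44 and 1.08 with IR+PR-LV.

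The counts of both genes were spread over copies. Each has 5 entries, 1 on the assembled chromosome 6 and 4 on alternate versions of that region, called alternate copies 2 to 5 here after the suffix of the entry. The chromosome 6 entry held 27 of 2838 counts of HSPA1A (0.951%) and 32 of 2110 counts of HSPA1B (1.52%). Alternate copy 5 held 88.7% of HSPA1A counts, and alternate copy 3 held 54.4% of HSPA1B counts. The share of HSPA1B on alternate copy 5 was 2.61%, 19.2% and 3.50% with IR+NC-LV and 0.855%, 7.53% and 5.61% with IR+PR-LV. In 100-base windows of the longest coding transcript (GENCODE release 29), 30.1% of HSPA1A and 27.3% of HSPA1B occurred in no other gene, against 94.9% to 100% for the other 8 members, so how reads divided between HSPA1A and HSPA1B is uncertain. Summed as 1 gene, they had a log2 fold change of 0.17 (adjusted p = 0.524, edgeR), and restricted to the assembled chromosomes neither passed the filter on low counts.

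In the ER, HSP90B1 (chr12:103930410-103947926, plus strand) encodes GRP94, the ER form of HSP90, which folds integrins and Toll-like receptors. Its levels were 2201, 2351 and 2295 TPM with IR+NC-LV and 2743, 2616 and 2749 TPM with IR+PR-LV. The groups were well apart, and with a fold of 1.22 this was the largest difference among the 10 members. The log2 fold change was 0.28 (SE 0.06, interval 0.14 to 0.42), with an unadjusted p of 0.00116 and an adjusted p of 0.164 by edgeR and an adjusted p of 0.00592 by DESeq2. With each library left out in turn the log2 fold change stayed between 0.25 and 0.33.

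HSPA5 (chr9:125234853-125241343, minus strand) encodes BiP, the ER HSP70, which also holds the ER stress sensors inactive in unstressed cells. It was at 869, 868 and 1079 TPM with IR+NC-LV and 1028, 927 and 981 TPM with IR+PR-LV. IR+NC-LV replicate 3 had the highest level of the 6 libraries, and the other two IR+NC-LV libraries had the lowest. This gave a log2 fold change of 0.10 (SE 0.07, interval -0.06 to 0.27; adjusted p = 0.659, edgeR). Single libraries moved it both ways: it was 0.062 when IR+NC-LV replicate 1 was left out, 0.068 when IR+PR-LV replicate 1 was, and 0.18 when IR+NC-LV replicate 3 was. The ratio of HSPA5 to HSP90B1 was 0.395, 0.369 and 0.470 with IR+NC-LV. With IR+PR-LV it was 0.375, 0.354 and 0.357, so the groups overlapped.

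In mitochondria, HSPD1 (chr2:197486584-197500274, minus strand) encodes HSP60, the chaperonin of the matrix. It had 1309, 1278 and 1388 TPM with IR+NC-LV and 1449, 1469 and 1553 TPM with IR+PR-LV. Every IR+PR-LV library was above every IR+NC-LV library, with a log2 fold change of 0.21 (SE 0.06, interval 0.09 to 0.33), an unadjusted p of 0.00349 and an adjusted p of 0.232 by edgeR, and an adjusted p of 0.0376 by DESeq2. It stayed between 0.19 and 0.23 with each library left out in turn. The lid of this chaperonin, HSPE1, was at 282, 240 and 256 TPM with IR+NC-LV and 289, 285 and 332 TPM with IR+PR-LV, again without overlap. The ratio of HSPD1 to HSPE1 overlapped between the groups (means 5.13 and 4.94), whereas the ratio of HSPD1 to HSPA9, the mitochondrial HSP70, was 2.66 to 2.98 with IR+NC-LV and 3.20 to 3.39 with IR+PR-LV and did not.

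Among 9831 genes with a mean of at least 10 CPM, the genes whose log2 CPM followed a member most closely over the 6 libraries were taken for 3 members, with Pearson's r as a description. For HSPA5 they were HS3ST3A1 (r = 0.998), PRKDC (0.986) and ST3GAL1 (0.985), for HSPA1B they were LANCL1 (0.992), SLC25A46 (0.991) and CDC27 (0.990), and for HSPD1 they were PRCP (0.995), IPO5 (0.994) and RFLNB (0.991). Over as few as 6 libraries high values are common: 98 genes for HSPA5, 241 for HSPA1B and 242 for HSPD1 had r above 0.9. All genes share the depth and preparation of the libraries.

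The rest of the chaperone network was read from 11 lists with 107 genes, of which 100 passed the filter on low counts. None passed the adjusted threshold in edgeR (smallest adjusted p = 0.0852, CHORDC1). At an unadjusted p under 0.05 there were 26 (22 higher and 4 lower, against 4.41% and 6.09% of all tested genes). In DESeq2, which called 1.02% of its genes, 4 passed. Those 4 were CHORDC1, CCT2, CCT4 and PFDN6. CCT2 was named for its level, and the other three and some of the genes below were named after their values were seen. The list with the most genes at an unadjusted p under 0.05 held the cytosolic chaperonin TRiC, the ring that folds actin and tubulin, together with prefoldin, which delivers clients to it. Of 14 such genes 13 had a log2 fold change above 0, with a median of 0.18 beside 0.0043 over all tested genes. At an unadjusted p under 0.05 there were 8, all higher (4.41% of all tested genes).

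CCT2, a TRiC subunit, was at 861, 847 and 903 TPM with IR+NC-LV and 958, 1006 and 1009 TPM with IR+PR-LV, without overlap and with a log2 fold change of 0.23. TCP1, another TRiC subunit, was at 816, 807 and 814 TPM with IR+NC-LV and 879, 898 and 944 TPM with IR+PR-LV, also without overlap and with a log2 fold change of 0.20. These differences were close in size to those of HSP90AA1 and HSPD1. PFDN6, a prefoldin subunit, had counts of 34, 39 and 14 with IR+NC-LV and 169, 86 and 283 with IR+PR-LV, and 0 of its 625 counts fell on the assembled chromosomes. Its libraries were thus far apart within a group as well as between them.

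The list of HSP90 relatives and co-chaperones holds the HSP90 paralogues HSP90AB1 and TRAP1. Of its 13 genes 12 had a log2 fold change above 0 (median 0.12). At an unadjusted p under 0.05 there were 4, all higher (4.41% of all tested genes). PTGES3, the p23 co-chaperone that stabilizes the closed form of HSP90, had a log2 fold change of 0.17. CHORDC1 was at 5.73, 6.36 and 7.44 TPM with IR+NC-LV and 9.73, 22.8 and 18.3 TPM with IR+PR-LV, with no overlap and a log2 fold change of 1.44, and 1546 of its 1557 counts fell on the assembled chromosomes. In the J-domain list 10 of 14 tested genes were above 0 (median 0.10). At an unadjusted p under 0.05, 2 were higher and 1 lower (4.41% and 6.09% of all tested genes). DNAJA1 had a log2 fold change of 0.13 and DNAJB11 of 0.12. DNAJA3, a mitochondrial J-domain protein, was at 10.3, 6.12 and 10.4 TPM with IR+NC-LV and 10.1, 24.3 and 20.9 TPM with IR+PR-LV. Only 3 of the 1402 DNAJA3 counts were on the assembled chromosomes. As for CHORDC1, IR+PR-LV replicates 2 and 3 were high and replicate 1 was closest to the controls.

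The HSP70 and HSP110 relatives divided evenly, with 5 of 10 tested genes above 0. At an unadjusted p under 0.05 there were 3, all higher (4.41% of all tested genes). In that list HSPA9 had a log2 fold change of -0.0034 and HSPA4 of 0.18. The exchange factors of HSP70 (6 of 9 above 0) had no gene at an unadjusted p under 0.05, with BAG3, which links HSP70 to autophagy, at a log2 fold change of -0.08 and GRPEL1, which serves the mitochondrial HSP70, at 0.04. The list named for small heat shock proteins leaves out the member HSPB1. Of its 4 genes tested, HSPB2, CRYAB and HSPB8 were below 0 and HSPB11 was at 0.04. Their median was -0.21, and none had an unadjusted p under 0.05. In TPM, 3 of the 4 had every IR+PR-LV library below the IR+NC-LV libraries (11.3% of all tested genes), and HSPB8 was at 141, 135 and 179 TPM with IR+NC-LV and 124, 133 and 132 TPM with IR+PR-LV.

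The heat shock factors and their inhibitor (4 genes) had log2 fold changes of 0.02 to 0.35, none at an unadjusted p under 0.05, with HSBP1 at 0.06 and HSF2 at 0.05. The value of 0.35 was that of HSF1, named after its values were seen, which was at 36.6, 9.23 and 23.2 TPM with IR+NC-LV and 20.5, 48.6 and 13.6 TPM with IR+PR-LV. The HSF1 libraries were scattered within both groups, and the groups overlapped. Of 18 other HSF1 targets, 12 were above 0 (median 0.08). Of these 18, 4 had an unadjusted p under 0.05, all higher (4.41% of all tested genes). They were CHORDC1, FKBP4, HSPE1 and HSPA4, each of which is also counted in another list. The mitochondrial list had 10 of 12 genes above 0 (median 0.10). At an unadjusted p under 0.05, 3 were higher (4.41% of all tested genes). They were HSPE1, TRAP1 and DNAJA3, which are also counted in lists above, so these counts are not separate. HSPE1 was at a log2 fold change of 0.26.

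The remaining ER genes did not all go the way of HSP90B1. Of 19 ER chaperones and folding enzymes 14 were above 0 (median 0.07). At an unadjusted p under 0.05 there were 3, CANX, PDIA3 and PDIA6, all higher (4.41% of all tested genes). CALR, the lectin chaperone calreticulin, had a log2 fold change of 0.09, and P4HB, a disulfide isomerase, 0.14. Of the 8 ER stress sensors and factors, 1 was higher and 3 were lower at an unadjusted p under 0.05. The shares of all tested genes were 4.41% higher and 6.09% lower. DDIT3, which encodes CHOP, a transcription factor of prolonged ER stress, was at 169, 156 and 198 TPM with IR+NC-LV and 139, 125 and 136 TPM with IR+PR-LV. All IR+PR-LV libraries of DDIT3 were below the IR+NC-LV libraries, with a log2 fold change of -0.34. XBP1, a transcription factor that raises ER chaperones, was at 143, 132 and 157 TPM with IR+NC-LV and 122, 116 and 118 TPM with IR+PR-LV, also without overlap, with a log2 fold change of -0.23. ERN1, the sensor that splices XBP1 mRNA, had the same sign.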

How the data were processed

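Poly(A) RNA of 6 libraries was sequenced from both ends, and reads of low quality were removed by the authors. The submitters' processing notes name CASAVA, featureCounts 2.0.1, DESeq2 1.16.1 and the build hg38. The aligner, the strand setting and the treatment of reads with several matches are not given in the sources used here. The deposited files hold counts per gene and, made from them by the authors, TPM and FPKM. FPKM was not used.

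Counts were summed by gene name and tested with edgeR 4.0.16 in R 4.3.3: filterByExpr (minimum count 10, minimum total 15), TMM factors from 0.981 to 1.04 and the quasi-likelihood test without covariates, adjusted by Benjamini-Hochberg over 15054 genes at a threshold of 0.05. The biological coefficient of variation was 0.099. Deposited TPM values, summed by gene name, were used for levels. Alternatives were DESeq2 1.42.0, limma 3.58.1 on log2(TPM + 1), other scalings and filters, leaving out each library and a replicate block. The test was checked on data simulated with this same coefficient for every gene, where it found few changes as small as those of the members. The spread of each member differs from that setting, so the check does not give the power for single members. Their intervals are given instead, and a member that did not pass is not shown to be unchanged. The labels do not say whether replicate numbers pair the libraries. Within each group, no pair of libraries was alike within sampling noise.

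The members and lists were chosen with earlier results of these data known. The rule for named genes took the 10 members, from each list the 2 tested genes of highest mean TPM and any past the threshold, the 3 genes most like HSPA5, HSPA1B and HSPD1, and PRDM16. Some genes of the lists are not reported here by name. Counting floors (3 counts) cover counting error only.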

Additional observations from a re-analysis of the deposited data

How the results depend on the processing

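None of the 10 members passed the threshold under any alternative except DESeq2, which called 3. The count of all genes past the threshold, 12 in the main test, was 354 without a filter, 37 on the assembled chromosomes only, 151 with DESeq2 and 7 at an adjusted p under 0.01. With 1 library left out it was lowest at 2 (without IR+PR-LV replicate 3), highest at 35 (IR+NC-LV replicate 2 left out), and was 6 without IR+PR-LV replicate 1. The median log2 fold change of the members was 0.13, beside 0.0043 over all tested genes. With limma on log2(TPM + 1) it was 0.0685, beside -0.032 over all tested genes. With 1 library left out the member median was from 0.0893 to 0.19, highest without IR+NC-LV replicate 3. The log2 fold change of HSPA1B ranged from -0.0145 (without IR+PR-LV replicate 3) to 0.32 (without IR+PR-LV replicate 1). The number of members at an unadjusted p under 0.05, an alternative chosen after seeing the data, ranged from 3 to 5 with 1 library left out, reaching 5 (4 higher and 1, HSPB1, lower) without IR+PR-LV replicate 1, and that of chaperonin and prefoldin genes from 5 (without IR+PR-LV replicate 2) to 8. The cause of these changes was not tested. With the replicate block 18 genes and 0 members passed, with a member median of 0.11. Deviations from the group mean had correlations of -0.017, 0.058 and 0.059 between libraries of the same number. So few libraries cannot settle whether the numbers pair them, and the labels do not say. Depth limits HSPA1A and HSPA1B most, since they had the fewest counts of the 10 members.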
